A study of Homo sapiens with 12 samples.

Results

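POLH encodes DNA polymerase eta, and it was examined here with 9 further genes of translesion synthesis in A549 cells, a human lung adenocarcinoma line. The 10 genes were the translesion polymerases POLH, POLK, POLI, REV1 and REV3L, the polymerase zeta subunit MAD2L2, and RAD18, USP1, HLTF and SHPRH of the pathway that ubiquitinates the sliding clamp PCNA. They were taken by symbol from 25365 named rows of an expression table, and all 10 were among the 11881 genes tested. The list was chosen by a measured value of these same libraries, since POLH was picked as the repair gene most raised by pyridostatin, and the others were added by function. Its response to pyridostatin is therefore given as a description with no p, and so are those of the other members, and where calls among them are counted the share of all genes called stands beside the count.

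When a replicative polymerase stalls at a damaged base, RAD18 attaches ubiquitin to PCNA, and the modified clamp recruits low-fidelity polymerases that copy across the lesion. POLH copies past the dimers made by ultraviolet light, and its loss causes the variant form of xeroderma pigmentosum. REV1 is a scaffold for the other polymerases, and polymerase zeta, built on REV3L and MAD2L2, extends from the inserted base. USP1 removes ubiquitin from PCNA, while HLTF and SHPRH extend it to a chain that directs template switching. Pyridostatin is a small molecule that stabilizes G-quadruplexes, stacked structures of guanine-rich DNA, and REV1 is known for helping replication past them.

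Polyadenylated RNA was sequenced from 4 groups with 3 biological replicates each: wild-type A549 cells and PARP3-/- A549 cells, each given either the vehicle DMSO or 1 µM pyridostatin, and all harvested at 24 h. PARP3 is a poly(ADP-ribose) polymerase that acts in double-strand break repair. It had been deleted with Cas9 and paired guides, and cells were cloned by serial dilution. How many clones entered the sequencing is not given in the sources used here, so a genotype difference and a difference between clones cannot be told apart. Values are FPKM, fragments scaled to transcript length and to mapped reads, which can be set side by side between genes.

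The 12 libraries held about 21200000 to 30000000 reads, as estimated from the steps of low values. At that depth POLH rested on about 271 to 603 reads per library, which gives a counting error of 6.07% to 4.07%. The epithelial keratins KRT8, KRT18 and KRT7 were each above 1500 FPKM in every library. Other epithelial markers were lower, with means over the libraries of 128.2 FPKM for KRT19, 12.98 for CDH1 and 1.513 for EPCAM. SFTPC and NKX2-1, which mark alveolar cells, stayed below 0.1 FPKM. PTPRC and CD3E of leukocytes were at or near 0. COL1A1, a fibroblast marker, averaged 1.076 FPKM. PARP3, the deleted gene, was at 3.83, 3.399 and 3.96 FPKM in wild-type cells with vehicle and at 3.74, 3.57 and 4.05 with pyridostatin. It was at 4.92, 4.07 and 4.25 FPKM in the libraries labelled PARP3-/- with vehicle and at 4.73, 4.71 and 4.295 with pyridostatin. PARP3 was thus no lower in the libraries labelled PARP3-/-, where its log2 value was higher by 0.21 over both treatments (SE 0.0506, limma adjusted p = 0.0154). A gene-level FPKM sums the whole transcript and does not show whether a deleted stretch was lost. For its PARP3-/- A549 cells the study reported a Cas9 deletion in the first exon of PARP3, read by Sanger sequencing. The second replicate of wild-type cells with vehicle stood apart from the other 11 libraries. Its tested genes with the longest transcripts, of 5818 bases or more, lay a median of 0.215 below their median over libraries on the log2 scale. The shortest, of up to 2022 bases, lay 0.162 above it. In the other libraries these medians ran from -0.0221 to 0.0533 and from -0.0151 to 0.0357.

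**Figure D1:**
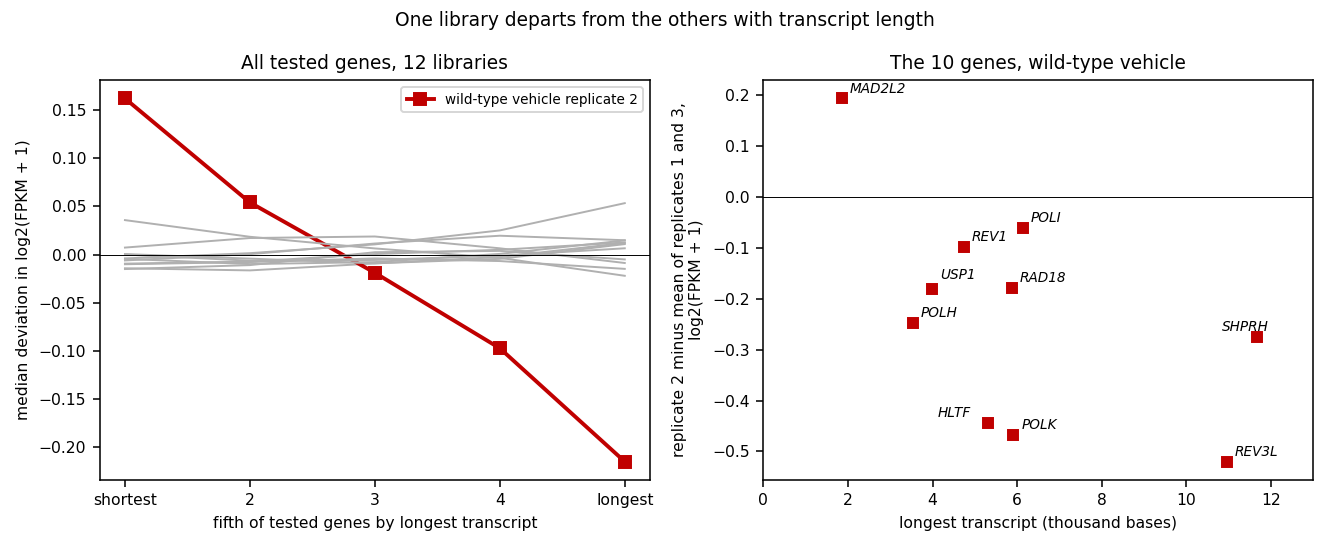
Left: median deviation of log2(FPKM + 1) from each gene's median over the 12 libraries, in 5 equal bins of transcript length, with 1 line per library; the second wild-type vehicle replicate (red squares) falls from 0.162 to -0.215 while the 11 other libraries (grey) stay near 0. Right: for each of the 10 genes, that replicate minus the mean of replicates 1 and 3 of its group, in log2(FPKM + 1), against the length of the longest transcript; MAD2L2 (1860 bases) is above 0 and REV3L (10964 bases) is lowest.

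All members but MAD2L2 were lower in the second wild-type vehicle replicate, though not in step with length. REV3L, with a longest transcript of 10964 bases, differed by -0.52 between that library and the mean of the other replicates of its group on the log2 scale. The differences were -0.468 for POLK, -0.444 for HLTF and -0.248 for POLH. SHPRH, the longest at 11660 bases, differed by -0.275, and POLI, at 6133 bases, by -0.0615. MAD2L2, whose longest transcript has 1860 bases, differed by 0.193. Values without this library are given beside the drug differences of wild-type cells, and for the genotype comparisons as counts, a range and the values of the members described.

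Promoter sequence from RefSeq (GRCh38.p14) was at hand for all 10 genes, in 13 windows that run from 250 bases before to 50 bases after a start. The files were made on another build, hg19, and carry no coordinates. POLH lies head to head with XPO5, the exporter of microRNA precursors from the nucleus. Their starts are 147 bases apart, at 43576185 on the plus strand of chromosome 6 for POLH and at 43576038 on the minus strand for XPO5. The stretch they share is shown because POLH and XPO5 can be compared as neighbours below. It is chr6:43576033-43576185, plus strand, and capitals mark both copies of the core motif of the factor NRF1, searched as GCGCA and GCGC with any 1 base between.
POLH and XPO5: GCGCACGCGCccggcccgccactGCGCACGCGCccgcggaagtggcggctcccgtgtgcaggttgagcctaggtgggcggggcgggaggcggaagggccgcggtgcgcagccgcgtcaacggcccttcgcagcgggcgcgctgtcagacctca

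These 153 bases were 77.8% G or C. Whole promoter windows, which are longer than this stretch, had a median of 58.7% over all 35116 and of 66.7% over the members' 13. The NRF1 core, read on both strands, was found in the windows of 3 members (POLH, REV1 and RAD18) and in those of 6.98% of 27305 genes. A pattern that can fold into a G-quadruplex, 4 runs of at least 3 G with 1 to 7 bases between them on either strand, was found in the windows of 5 members and in those of 27.9% of all genes. It did not overlap the NRF1 core in any member. These matches are shown because pyridostatin binds such structures, each on the strand that carries the G runs, with the runs in capitals.
POLH, chr6:43575955-43575980, plus strand: GGGccgcggcGGGcggcGGGGGtGGG
REV1, chr2:99490200-99490218, minus strand: GGGcGGGGccGGGGaGGGG
REV3L, chr6:111483730-111483749, plus strand: GGGaGGGaaGGGcGGGcGGG
POLK, chr5:75511677-75511707, minus strand: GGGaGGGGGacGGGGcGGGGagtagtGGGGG
MAD2L2, chr1:11691672-11691701, minus strand: GGGGGagtGGGcGGGcaggaGGGaaGGGGG

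REV3L held further matches of this kind in its windows, and so did MAD2L2. The response element of p53 was searched as a pair of palindromic sites with up to 13 bases between them and no mismatch allowed. It was in none of the members' windows and in those of 0.0366% of all genes. So strict a search cannot show that a gene lacks a p53 site, and sequence outside the windows was not searched. A match describes the letters of a window, and binding was not measured.

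Among the members, MAD2L2 had the highest level and SHPRH the lowest in wild-type cells with vehicle, with group means of 25.2 ± 2.17 and 1.75 ± 0.292 FPKM (SD, n = 3). USP1 (23.2 ± 1.72) and HLTF (18.2 ± 3.26) came next, followed by RAD18 (8.73 ± 0.691) and POLK (7.09 ± 1.56). REV1 stood at 3.61 ± 0.205 FPKM and POLH at 3.57 ± 0.441, and their replicates overlapped. REV3L (1.97 ± 0.578), POLI (1.80 ± 0.110) and SHPRH overlapped each other in turn. The same order of means was found in the libraries labelled PARP3-/- with vehicle. MAD2L2, USP1, HLTF and RAD18 were thus at higher mean levels than any of the polymerases, and SHPRH was not. With pyridostatin POLH stood above REV1 in both genotypes without overlap, and the order of the members above it stayed as it was.

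**Figure D2:**
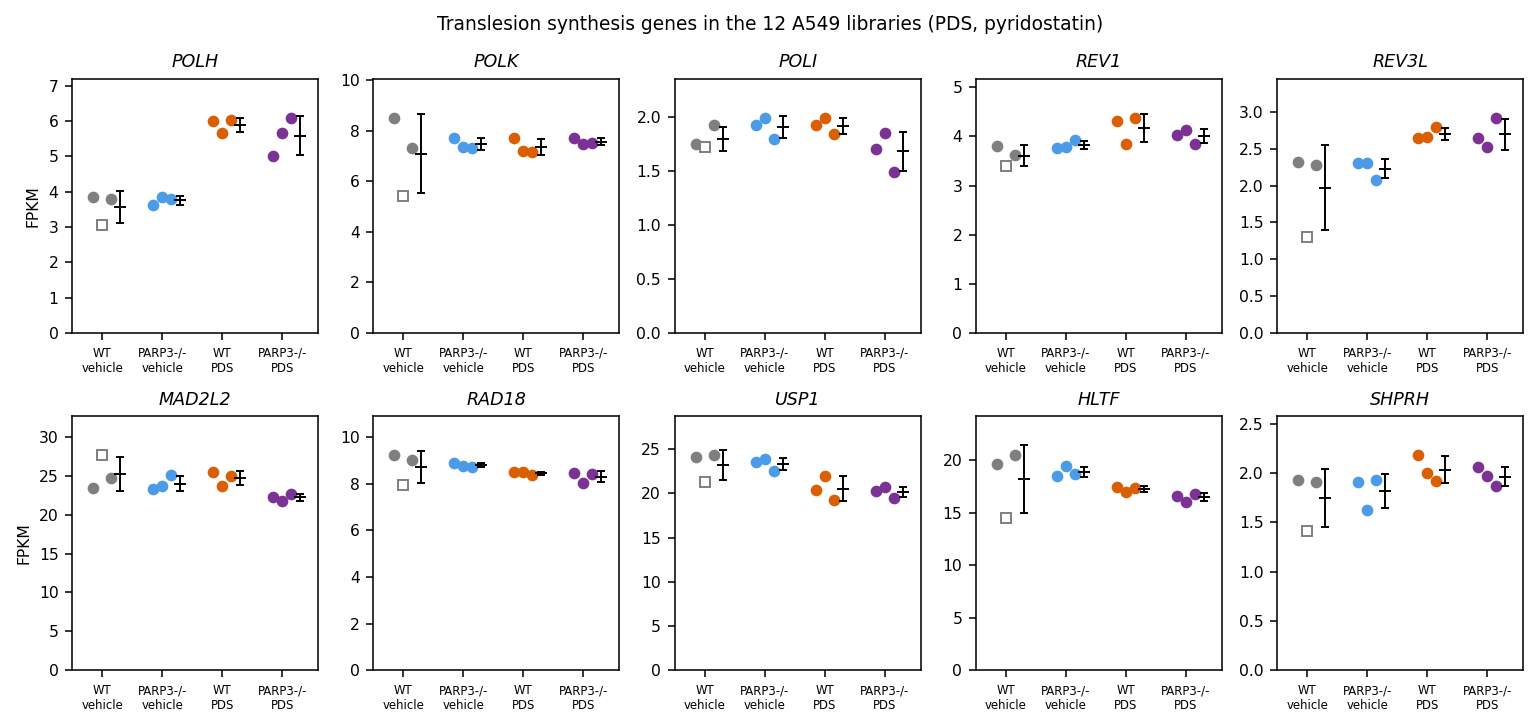
FPKM of the 10 genes in the 12 libraries, by group (WT, wild type; PDS, pyridostatin), each panel with its own linear axis from 0. Points are single libraries, the open square is the second wild-type vehicle replicate, and bars give the mean and SD of 3; in the panels of POLH and REV3L every pyridostatin library lies above every vehicle library.

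POLH was at 3.84, 3.06 and 3.80 FPKM in wild-type cells with vehicle and at 6.004, 5.68 and 6.02 FPKM with pyridostatin. In the libraries labelled PARP3-/- it was at 3.62, 3.84 and 3.79 FPKM with vehicle and at 5.002, 5.65 and 6.10 FPKM with pyridostatin. Every library with the drug was above every library without it, in both genotypes. In bulk RNA, more cells that express a gene and more RNA per cell cannot be told apart. The group mean was 1.65 times that of vehicle in wild-type cells, or 1.54 times without the second vehicle replicate, and 1.49 times in the libraries labelled PARP3-/-. On the log2(FPKM + 1) scale, which understates changes of low genes, the difference in wild-type cells was 0.60 (SE 0.0771, 95% interval 0.43 to 0.77). It was 0.47 (interval 0.30 to 0.64) in those labelled PARP3-/-. These intervals do not allow for the choice of POLH by this same response. Neither difference reached 1 on that scale, the threshold the study set for a changed gene, which 0.0505% and 0.0673% of all genes passed in these comparisons together with an adjusted p under 0.05.

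POLH also gained weight among its relatives, in shares and ratios that use the same POLH values by which it was chosen. Y-family polymerases share a fold with an open active site that accepts damaged bases, and POLH, POLK, POLI and REV1 belong to it. POLH made up 22.2% ± 0.709 (SD, n = 3) of their summed FPKM in wild-type cells with vehicle and 30.5% ± 0.475 with pyridostatin. In the libraries labelled PARP3-/- these shares were 22.1% ± 0.773 and 29.6% ± 2.55. The ratio of POLH to REV1 was 0.899 to 1.05 in wild-type cells with vehicle and 1.37 to 1.47 with pyridostatin. In the second wild-type vehicle replicate both POLH and REV1 were low, and the ratios of the 2 groups did not overlap whether or not it was counted. For the libraries labelled PARP3-/- the ratio was 0.964 to 1.02 with vehicle and 1.24 to 1.58 with pyridostatin.

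POLH was ranked among the DNA repair genes that the study had assembled for a screen, of which 159 were tested here and 6 are members. POLH ranked 1 among them for the pyridostatin difference in either genotype, which restates how it was chosen. Next in this set came DDB2, a damage sensor of nucleotide excision repair, with log2 differences of 0.50 in wild-type cells and 0.32 in those labelled PARP3-/-. REV3L followed with 0.34 and 0.19, and POLL, a gap-filling polymerase, with 0.16 and 0.20. The set does not hold every repair gene. XPC differed by 0.50 and 0.39 and RRM2B by 0.37 and 0.50, both named after their values were seen. Among all 11881 genes tested POLH ranked 115 in wild-type cells and 154 in those labelled PARP3-/-.

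XPO5, which starts 147 bases from POLH on the other strand, showed no such step. It was at 14.5, 13.1 and 14.7 FPKM in wild-type cells with vehicle and at 13.9, 13.7 and 13.99 FPKM with pyridostatin. With the PARP3-/- label it was at 13.8, 13.3 and 15.3 FPKM with vehicle and at 13.7, 13.3 and 13.99 FPKM with the drug. The groups overlapped in both genotypes, and the log2 differences were -0.0225 (95% interval -0.14 to 0.10, limma adjusted p = 0.858) and -0.0435 (interval -0.16 to 0.08, adjusted p = 0.731). Without the second wild-type vehicle replicate the XPO5 groups of wild-type cells no longer overlapped, and the ratio of means was 0.949. GTPBP2, whose span overlaps that of POLH on the other strand, differed by 0.10 and 0.07 with pyridostatin. Whether the counting used strand is not given in the sources used here, so reads from such overlaps cannot be told apart.

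**Figure D3:**
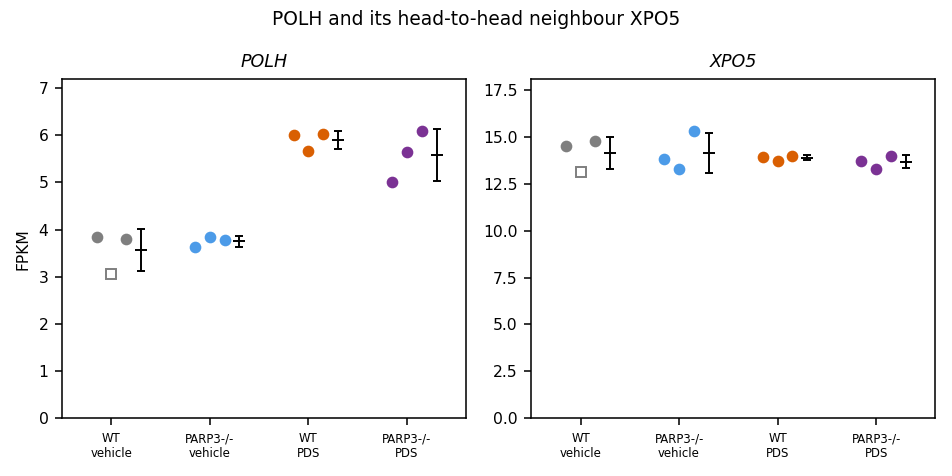
FPKM of POLH and of XPO5, whose start lies 147 bases away on the other strand, in the 12 libraries by group, on linear axes from 0. Points are libraries, the open square is the second wild-type vehicle replicate, and bars are the mean and SD of 3; POLH goes from about 3.57 to 5.90 FPKM in wild-type cells while XPO5 stays between 13.1 and 15.3 FPKM in all libraries.

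The genes most like POLH over the 12 libraries, by Pearson's r of log2 values, were SAMD4B (r = 0.988), ZNF609 (0.985), KDM3B (0.984), NFATC3 (0.980) and ABCA12 (0.977). These libraries share the 2 treatments, so the coefficients mostly describe the step between vehicle and pyridostatin and carry no p. KDM3B, a histone demethylase, went from group means of 16.0 to 26.2 FPKM in wild-type cells and from 15.3 to 25.4 FPKM in those labelled PARP3-/-. Over the same libraries REV3L had r = 0.828 with POLH and REV1 had 0.791, while USP1 had -0.733. Of the p53 targets listed below, r is given only for CDKN1A (0.932) and MDM2 (0.963), picked outside the rule of likeness. The other targets were not compared with POLH in this way.

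Of the other polymerase genes, REV3L and REV1 had wild-type groups that did not overlap between vehicle and pyridostatin. REV3L, the catalytic subunit of polymerase zeta, was at 2.32, 1.305 and 2.28 FPKM in wild-type cells with vehicle and at 2.65, 2.65 and 2.79 with pyridostatin. Those labelled PARP3-/- had 2.30, 2.31 and 2.08 FPKM with vehicle and 2.64, 2.52 and 2.92 with the drug. Neither pair of groups overlapped. The log2 differences were 0.34 (95% interval 0.07 to 0.60) and 0.19 (interval -0.07 to 0.46), and the first was 0.16 without the second wild-type vehicle replicate. TRAF3IP2-AS1, an antisense RNA that overlaps the REV3L span, differed by 0.26 and 0.17, and its part in the REV3L values was not tested.

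REV1 was at 3.81, 3.403 and 3.62 FPKM in wild-type cells with vehicle and at 4.31, 3.85 and 4.38 with pyridostatin. The groups did not overlap, and the ratio of means was 1.16, or 1.13 without the second vehicle replicate. Under the PARP3-/- label REV1 was at 3.76, 3.78 and 3.92 FPKM with vehicle and at 4.03, 4.13 and 3.85 with the drug. These groups overlapped, with a ratio of 1.05. EIF5B, whose span overlaps that of REV1 on the other strand, averaged 42.1 FPKM and differed by -0.0058 and -0.10 with pyridostatin. Its part in the REV1 values was not tested.

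The groups of POLK and POLI overlapped. POLK, which bypasses bulky adducts, ranged from 5.44 to 8.52 FPKM in wild-type cells with vehicle and from 7.17 to 7.72 with pyridostatin, a log2 difference of 0.06 that became -0.09 without the second vehicle replicate. In the libraries labelled PARP3-/- POLK had vehicle values of 7.31 to 7.74 FPKM and drug values of 7.46 to 7.72. COL4A3BP, whose span overlaps that of POLK on the other strand, averaged 8.3 FPKM and differed by 0.03 and 0.0054 with pyridostatin. POLI, a paralogue of POLH, ranged from 1.72 to 1.92 FPKM in wild-type cells with vehicle and from 1.84 to 1.99 with pyridostatin. It ranged from 1.80 to 1.99 FPKM and from 1.49 to 1.85 FPKM in those labelled PARP3-/-. The log2 difference of POLI in wild-type cells was 0.04 without the second vehicle replicate. MAD2L2, which joins REV3L in polymerase zeta, differed by -0.03 in wild-type cells, or by 0.04 without that replicate, and by -0.11 in those labelled PARP3-/-.

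Of the genes that place or remove ubiquitin on PCNA, USP1 had the most negative drug difference in either genotype. It was at 24.0, 21.2 and 24.3 FPKM in wild-type cells with vehicle and at 20.4, 21.9 and 19.2 with pyridostatin. Values were 23.5, 23.9 and 22.5 FPKM in those labelled PARP3-/- with vehicle and 20.2, 20.7 and 19.5 with the drug. The groups overlapped in wild-type cells through the second vehicle replicate and did not overlap in those labelled PARP3-/-. The log2 differences were -0.17 (95% interval -0.30 to -0.04) and -0.20 (interval -0.33 to -0.07), and the first was -0.23 without that replicate.

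HLTF, a ubiquitin ligase and fork remodeller, was at 19.7, 14.5 and 20.5 FPKM in wild-type cells with vehicle and at 17.5, 16.95 and 17.3 with pyridostatin. In the libraries labelled PARP3-/- it was at 18.5, 19.5 and 18.8 FPKM with vehicle and at 16.6, 16.1 and 16.8 with the drug. In wild-type cells only the second vehicle replicate lay below the drug-treated libraries, and the groups labelled PARP3-/- did not overlap. The log2 differences were -0.06 and -0.19, and the first was -0.21 without the second wild-type vehicle replicate. RAD18, the ligase that starts the pathway, ranged from 7.94 to 9.23 FPKM in wild-type cells with vehicle and from 8.38 to 8.50 with pyridostatin, a log2 difference of -0.04, or of -0.10 without the second vehicle replicate, where the groups no longer overlapped. It ranged from 8.72 to 8.88 FPKM and from 8.03 to 8.46 FPKM in those labelled PARP3-/-, a difference of -0.07. SHPRH, related to HLTF, differed by 0.15 and 0.07, and its groups overlapped. The first of these was 0.06 without the second wild-type vehicle replicate.

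**Figure D4:**
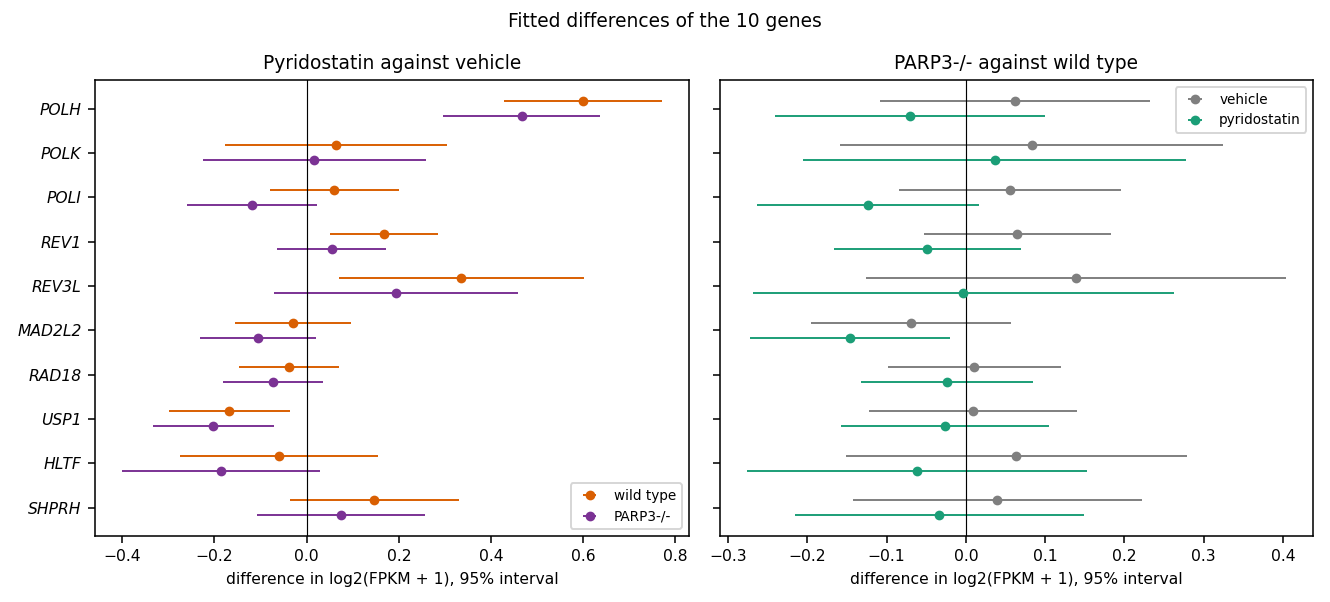
Fitted differences in log2(FPKM + 1) with 95% intervals for the 10 genes. Left: pyridostatin against vehicle in wild-type cells (orange) and in those labelled PARP3-/- (purple), where POLH, chosen by this response, is at 0.60 and 0.47. Right: libraries labelled PARP3-/- against wild type with vehicle (grey) and with pyridostatin (green), where 19 of 20 intervals include 0, MAD2L2 with pyridostatin excepted.

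By an adjusted p under 0.05 in limma, 1 of the 10 members, POLH, was called in wild-type cells with pyridostatin, where 4.17% of all genes tested were called. Again 1 of 10, POLH, was called in the libraries labelled PARP3-/-, against 5.56% of all genes. These counts come from the contrasts that chose POLH and nothing is read from them. Fitted on the 6 wild-type libraries alone, 0 members passed there, against 0.547% of all genes. Without the second wild-type vehicle replicate 3 members passed in wild-type cells (POLH higher, USP1 and HLTF lower), against 5.94% of all genes, and 4 in those labelled PARP3-/- (the same 3 and REV3L), against 13.1%. Groups did not overlap for 3 of 10 members in wild-type cells and for 6 of 10 in those labelled PARP3-/-, against 23.1% and 32.3% of all genes tested. Without the second wild-type vehicle replicate the first count was 6, with RAD18, USP1 and HLTF added, against 41.9% of all genes.

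Whether the loss of PARP3 altered the members was tested in both treatments, on contrasts that the choice of POLH did not use, although they share its libraries. With vehicle 0 of 10 members differed between genotypes by limma, and 0 had an unadjusted p under 0.05, where 9.41% of all genes were called. With pyridostatin 0 of 10 were called against 10.9% of all genes, and over the mean of both treatments 0 of 10 against 19.1%. In each of these, 1 member had an unadjusted p under 0.05, which was MAD2L2. No member's groups were without overlap with vehicle, and those of 2 members, MAD2L2 and HLTF, did not overlap with pyridostatin, against 24.2% and 35.2% of all genes. Without the second wild-type vehicle replicate 3 members (RAD18, USP1 and HLTF), all lower in those labelled PARP3-/-, did not overlap with vehicle, against 46.8% of all genes. Positive vehicle differences were then found for 2 members and negative ones for 8, in place of 9 and 1, from -0.08 for HLTF to 0.03 for POLI.

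POLH differed between genotypes by 0.06 with vehicle (95% interval -0.11 to 0.23, adjusted p = 0.721; -0.02 without the second wild-type vehicle replicate) and by -0.07 with pyridostatin (interval -0.24 to 0.10, adjusted p = 0.649). Over both treatments the difference was -0.0042 with an interval from -0.12 to 0.12, or -0.05 without that replicate. REV1 differed by 0.06 and -0.05, and its interval over both treatments ran from -0.08 to 0.09. RAD18 and USP1 were as close, with intervals over both treatments from -0.08 to 0.07 and from -0.10 to 0.08. For REV3L the interval was wider, from -0.12 to 0.26, and its second wild-type vehicle replicate stood at 1.305 FPKM.

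MAD2L2 was the member with the largest genotype difference over both treatments. With pyridostatin it was at 25.4, 23.7 and 24.9 FPKM in wild-type cells and at 22.2, 21.7 and 22.7 in those labelled PARP3-/-. With vehicle it was at 23.4, 27.6 and 24.7 FPKM and at 23.2, 23.6 and 25.1. The groups were apart with pyridostatin and overlapped with vehicle. The log2 difference was -0.15 with pyridostatin (95% interval -0.27 to -0.02, adjusted p = 0.143) and -0.11 over both treatments (adjusted p = 0.0934). Leaving out the second wild-type vehicle replicate gave an adjusted p of 0.03 with pyridostatin, and the difference over both treatments then was -0.08 (adjusted p = 0.0911). Leaving out the first instead gave -0.13 over both treatments (adjusted p = 0.0341). HLTF, at 0.0011 over both treatments, came to -0.07 without the second wild-type vehicle replicate (adjusted p = 0.0426).

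Whether pyridostatin acted differently in the 2 genotypes was asked with the interaction term, for which 0% of all genes and 0 of 10 members were called, and 0 members had an unadjusted p under 0.05. The POLH difference was 0.13 smaller in those labelled PARP3-/- (-0.13, 95% interval -0.37 to 0.11), and 0.0499 smaller without the second wild-type vehicle replicate. POLI had the smallest p of the other members (-0.18, interval -0.38 to 0.02, unadjusted p = 0.0722, adjusted p = 0.9985). All 10 members had a negative interaction, but they share the second wild-type vehicle replicate, and without it 6 were positive and 4 negative.

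The other genes of damage tolerance, a list of 30 with the enzymes that modify PCNA, further polymerases and single-strand binding proteins, were set beside POLH. Of the 29 tested, 0 were higher with pyridostatin in wild-type cells, where 2.79% of all genes were, and 1 was lower, where 1.38% were. In those labelled PARP3-/- 0 were higher, against 3.05% of all genes, and 5 were lower, against 2.52%. At such shares of higher genes nothing is read from the counts of 0. PRIMPOL, which restarts synthesis ahead of a lesion, was lower in both, from 6.18 ± 0.364 to 5.14 ± 0.188 FPKM (SD, n = 3; log2 difference -0.23, limma adjusted p = 0.0236) and from 6.20 ± 0.174 to 4.85 ± 0.0680 FPKM (-0.30, adjusted p = 0.0044). The others in those labelled PARP3-/- were POLD3 (-0.22) and POLD1 (-0.18), subunits of the replicative polymerase delta, the chromatin assembly factor CHAF1A (-0.20) and the single-strand binding protein RPA1 (-0.15), which was named after its value was seen. The count of 5 was 12 without the second wild-type vehicle replicate, where 13.1% of all genes were called in either direction, and 1 or 2 without any single library labelled PARP3-/-, where 2.14% to 4% were. The call in wild-type cells was lost without the third vehicle replicate or without the first or the third pyridostatin replicate. List medians were -0.0320 and -0.0535, against 0.0030 and 0.0021 for all genes. Between genotypes POLB, a gap-filling polymerase of base excision repair, was lower in those labelled PARP3-/- with pyridostatin (-0.26, adjusted p = 0.0380). It was 1 of 29 called there, where 10.9% of all genes were called and 3.85% were lower. Over both treatments 2 of 29 were called, against 19.1% of all genes. These were POLB, which was lower (-0.21, adjusted p = 0.0154), and POLL, which was higher (0.17, adjusted p = 0.0380). Neither count was above those shares. The POLB call with pyridostatin was lost without the second or the third wild-type pyridostatin replicate, the first or the third vehicle replicate labelled PARP3-/-, or any single pyridostatin replicate with that label. With vehicle 0 of 29 were called, where 9.41% of all genes were, and 2 had an unadjusted p under 0.05.

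POLH is itself known as a target of p53, and 30 further p53 targets, listed with earlier results of these data known, were set beside it. Of the 29 tested, 25 were higher with pyridostatin in wild-type cells, where 2.79% of all genes were, and 29 were higher in those labelled PARP3-/-, against 3.05%. BTG2, an antiproliferative gene, went from 4.51 ± 0.143 to 11.7 ± 0.482 FPKM in wild-type cells (SD, n = 3; log2 difference 1.21, limma adjusted p = 2.325e-05). CDKN1A, the inhibitor of cyclin-dependent kinases, went from 87.0 ± 7.27 to 193 ± 3.405 FPKM (1.14, adjusted p = 1.116e-05). FDXR, a mitochondrial reductase (0.97), and SESN1, a stress-response gene (0.90), followed in wild-type cells. In those labelled PARP3-/- the leading genes were BTG2 (1.08), CDKN1A (1.05), SESN1 (0.94) and BBC3 (0.92), a gene of apoptosis. The list had a median of 0.50 in wild-type cells and of 0.44 in those labelled PARP3-/-, beside 0.60 and 0.47 for POLH. These POLH values are the ones that chose it, and whether p53 raised POLH was not tested. The other 9 members lay between -0.17 and 0.34 in wild-type cells and between -0.20 and 0.19 in those labelled PARP3-/-.

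**Figure D5:**
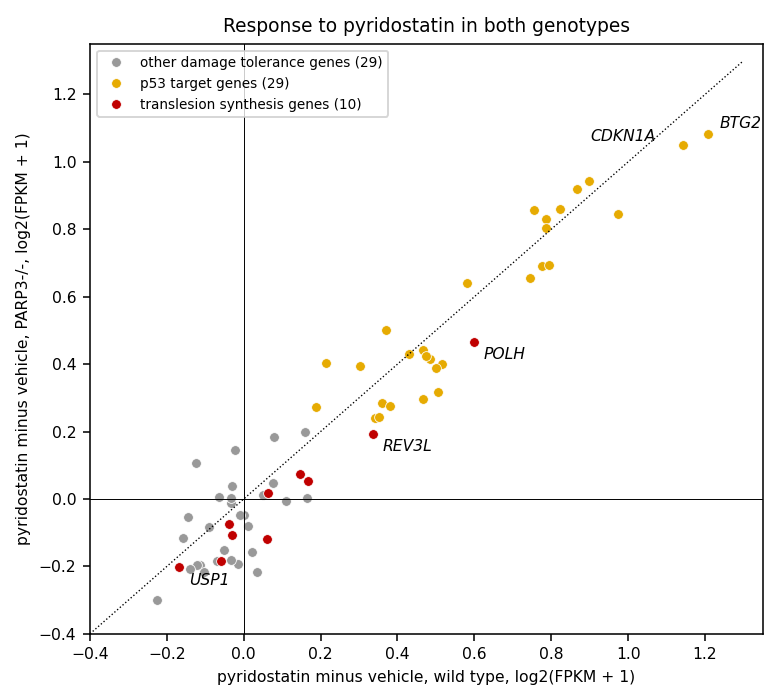
Pyridostatin difference in log2(FPKM + 1) in wild-type cells (horizontal) against that in the libraries labelled PARP3-/- (vertical), 1 point per gene; the dotted line marks equal differences. The 29 p53 targets (yellow) are all above 0 on both axes, and the 29 other damage tolerance genes (grey) lie around 0. POLH (red), chosen by this response, is at 0.60 and 0.47, and the 9 other members lie closer to 0.

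Several p53 targets differed between genotypes. With vehicle 8 of 29 were higher in the libraries labelled PARP3-/- (6.4% of all genes were), 3 with pyridostatin (against 7.07%) and 10 over both treatments (against 12.2%), where 1 was lower (against 6.95%). FAS, a death receptor, was at 10.8 ± 0.447 and 14.3 ± 1.27 FPKM with vehicle (SD, n = 3; log2 difference 0.37, limma adjusted p = 0.0095). SPATA18 (0.29), PLK3 (0.29) and TP53I3 (0.24) were the next with vehicle, and TP53INP1 (0.34), FAS (0.28) and PLK3 (0.26) were those with pyridostatin. The lower gene was GDF15 (-0.19), a secreted stress cytokine named after its value was seen. Fitted on the 6 vehicle libraries alone, 1 target was called in place of 8, against 4.48% of all genes. Without the third wild-type vehicle replicate, or the second or the third labelled PARP3-/-, 4 were called, against 6.28% to 7.4%. The count over both treatments was 18 without the second wild-type vehicle replicate (against 27.2% of all genes called in either direction). It was 7 or 6 without the second or the third labelled PARP3-/- with pyridostatin (against 15% and 15.5%). The count of 3 with pyridostatin was 7 without the second wild-type vehicle replicate (against 19.3%). It was 1 without the second or the third wild-type pyridostatin replicate or any single one labelled PARP3-/- with pyridostatin (against 6.78% to 10.1%). No difference of POLH between genotypes was detected in the same fits, and whether it differed from these targets in that was not tested.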

How the data were processed

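RNA had been sequenced as single-end reads of 75 bases from stranded libraries of polyadenylated RNA. The submitters' processing notes name bcl2fastq 2.16, STAR 2.5, Cufflinks and the builds hg19 and mm9, without roles. The authors deposited FPKM values, scaled to transcript length and mapped reads, 1 column per library with no pooling. Counts were not used here. Values were analysed as log2(FPKM + 1) without further scaling. Genes averaging 1 FPKM or more entered limma 3.58.1 (R 4.3.3), with 1 model of 4 groups, moderated with a trend, adjusted over all genes by Benjamini and Hochberg and called at an adjusted p under 0.05. The fit was tested on simulated data. Members, gene lists and tests were chosen with earlier results of these data known. Named genes were the members, PARP3, and up to 4 called genes per list and contrast with the largest differences. The 5 genes most like POLH and the 3 repair genes ranked next to it were named too. So were tested genes overlapping a member's span or starting within 1000 bases of it. Transcript lengths came from GENCODE release 29 (97.6% of tested genes), and depth was estimated from 1-read steps with them. Sequences came from RefSeq.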

Additional observations from a re-analysis of the deposited data

How the results depend on the processing

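The precision was limited by 3 libraries per group and by the low FPKM of POLI, SHPRH and REV3L, and 1 wild-type vehicle library departed with transcript length. Of 21 alternatives, 1 (removal of the length trend, chosen after seeing the data) was added. POLH could not be tested at a mean of at least 5 FPKM; in the other alternatives its drug difference, given as a description, ran from 0.52 to 0.72 (log2) in wild-type cells and from 0.41 to 0.56 in those labelled PARP3-/-.

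Leaving out single libraries gave 0 to 1 members called between genotypes with pyridostatin and 0 to 1 over both treatments, 1 to 3 with pyridostatin in wild-type cells and 1 to 4 in those labelled PARP3-/-. The tolerance genes ran from 0 to 1 with vehicle, 0 to 3 with pyridostatin and 1 to 2 over both treatments between genotypes, and from 0 to 2 and 1 to 12 with the drug in wild-type cells and in those labelled PARP3-/-. The p53 targets ran from 4 to 12, 1 to 7 and 6 to 18 between genotypes. The share of all genes called moved too in these fits. Between genotypes it ran from 6.28% to 13.8% with vehicle, 6.78% to 19.3% with pyridostatin and 14.9% to 27.2% over both treatments. With the drug it ran from 1.5% to 5.94% in wild-type cells and from 2.14% to 13.1% in those labelled PARP3-/-. HLTF ran from -0.073 to 0.045 over both treatments and reversed to -0.073 without the second wild-type vehicle replicate.

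Fitted only on the libraries compared, members called were 1 between genotypes with pyridostatin (MAD2L2), 0 in wild-type cells and 3 in those labelled PARP3-/- with the drug; tolerance genes were 0 and 8 with the drug, and p53 targets 1 between genotypes with vehicle. That fit called 532 in place of 1118 of all genes (4.48%) between genotypes with vehicle and 65 in place of 495 (0.547%) with the drug in wild-type cells. It called 13.7% between genotypes with pyridostatin and 7.42% with the drug in those labelled PARP3-/-. Members called were 0 and 0 with the drug at a mean of at least 5 FPKM, since POLH was not tested, and tolerance genes in wild-type cells 0. There 4.84% and 7.12% of all genes were called with the drug. Quantile normalization gave 1 member over both treatments (MAD2L2), against 19.9% of all genes. It gave 2 tolerance genes and 5 p53 targets between genotypes with pyridostatin, against 11.9%. With the drug in wild-type cells it gave 2 tolerance genes, against 4.14%. Removal of the length trend gave 1 member over both treatments (MAD2L2), against 22.8% of all genes, and 2 in those labelled PARP3-/- with the drug, against 7.43%. A common median gave 2 members in those labelled PARP3-/- with the drug (POLH and USP1), against 5.42% of all genes. It gave 5 p53 targets between genotypes with vehicle, against 9.13%. No filter gave 1 tolerance gene between genotypes with vehicle and 0 with pyridostatin, against 7.09% and 7.91% of all genes. Apart from filters and smaller fits, the cause was not tested. A common median lowered the share of higher genes among all called from 68% to 51.7% (vehicle), 64.8% to 53.1% (pyridostatin) and 63.7% to 45.7% (both) between genotypes, and from 66.9% to 45.6% with the drug in wild-type cells. Quantile normalization gave 57.8% with vehicle and 52.2% over both.

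Same-numbered libraries did not pair: their deviations correlated from -0.12 to 0.216 over the 4 comparisons. With the replicate number as a block, 1 member (POLH) was called with the drug in either genotype, against 3.46% and 4.96% of all genes. In the other comparisons 0 were called. These counts were as without the block. Tolerance genes fell to 0 between genotypes with pyridostatin (against 10.2%) and to 1 over both treatments (against 18.3%).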
